A study of Mus musculus with 8 samples.

Results

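The 72 genes described here build and run mitosis: the cyclins and kinases that start it, the chromosomal passenger complex and spindle checkpoint that police it, the centromere and kinetochore proteins that tie chromosomes to the spindle, the condensins that compact chromosomes, and the anaphase-promoting complex that ends it. They were picked by symbol alone, as every gene named Cenp plus a letter, Cdca2 to Cdca8, Anapc plus a number or Ncap plus d, g or h, and as named cyclins, Cdc25 phosphatases, mitotic kinases, checkpoint, Ndc80, Ska and passenger complex genes, Smc2, Smc4, Top2a, Tpx2 and Esco2. The rule found 72 of the 21202 named genes of the series, 68 in a table of exon values and 71 in a table of intron values. Plk1, Smc4, Ncapd2 and Ska2 were not in the exon table as analysed here, and Cenpb was not in the intron table.

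Total RNA without ribosomal RNA was sequenced from embryonic stem cells (ESC) of the hybrid mouse line F1-21.6, of 129Sv-Cast/EiJ background, and from neural progenitor cells (NPC) that were 1 clone derived from that line. ESC were grown in serum with leukaemia inhibitory factor on embryonic fibroblast feeders whose division mitomycin C had stopped. Each cell type had 2 biological replicates with 2 technical libraries each, 8 libraries in all, and the labels name no treatment or engineered allele for either group. Because the NPC are a single clone, a difference between cell types cannot be told apart from a difference between this clone and its parent line. In bulk RNA such as this, fewer dividing cells and less RNA of a gene per dividing cell cannot be told apart either.

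A cell enters mitosis when cyclin B and cyclin A activate the kinase Cdk1, whose inhibitory phosphates are removed by the Cdc25 phosphatases. Condensins and topoisomerase II then shape chromosomes, the kinetochore assembled on Cenpa-containing nucleosomes captures spindle microtubules, and the checkpoint holds back the anaphase-promoting complex until every chromosome is attached. Many of these genes are transcribed late in the cell cycle, through CCAAT boxes bound by NF-Y and through a short element named the cell cycle genes homology region (CHR), to which the DREAM and B-Myb complexes bind. Mouse ESC are known for fast division with short gap phases, and neural progenitors in culture also divide.

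Most mitotic genes had lower exon levels in NPC than in ESC, by modest factors. In the authors' deposited table, whose log2 fold changes are NPC relative to ESC and come with an adjusted p-value, 41 of 68 members fell, which is 60.3% of them, where 33.9% of all 12509 tested genes fell. Only 4 members rose (5.88%, against 32.3% of all tested genes), namely Cdc25b, Cenpb, Anapc4 and Anapc16, and 23 did not pass an adjusted p of 0.05. The median log2 fold change of the members was -0.83 and that of all tested genes -0.07. RPKM, reads scaled to gene length and library size, allows levels of different genes to be set side by side. The median member was at 64.9 RPKM in ESC and 43.7 RPKM in NPC, and no member was silent in either cell type, the lowest being Ccna1 at 2.07 and 1.95 RPKM and the highest Top2a at 567 and 382 RPKM. These exon levels are the authors' pooled values per cell type, so they carry no replicate spread. The log2 ratio of the pooled RPKM values lay above the deposited log2 fold change in all 68 members, by a median of 0.14, so small differences in RPKM can look higher in NPC where the fold change is near 0.

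**Figure D1:**
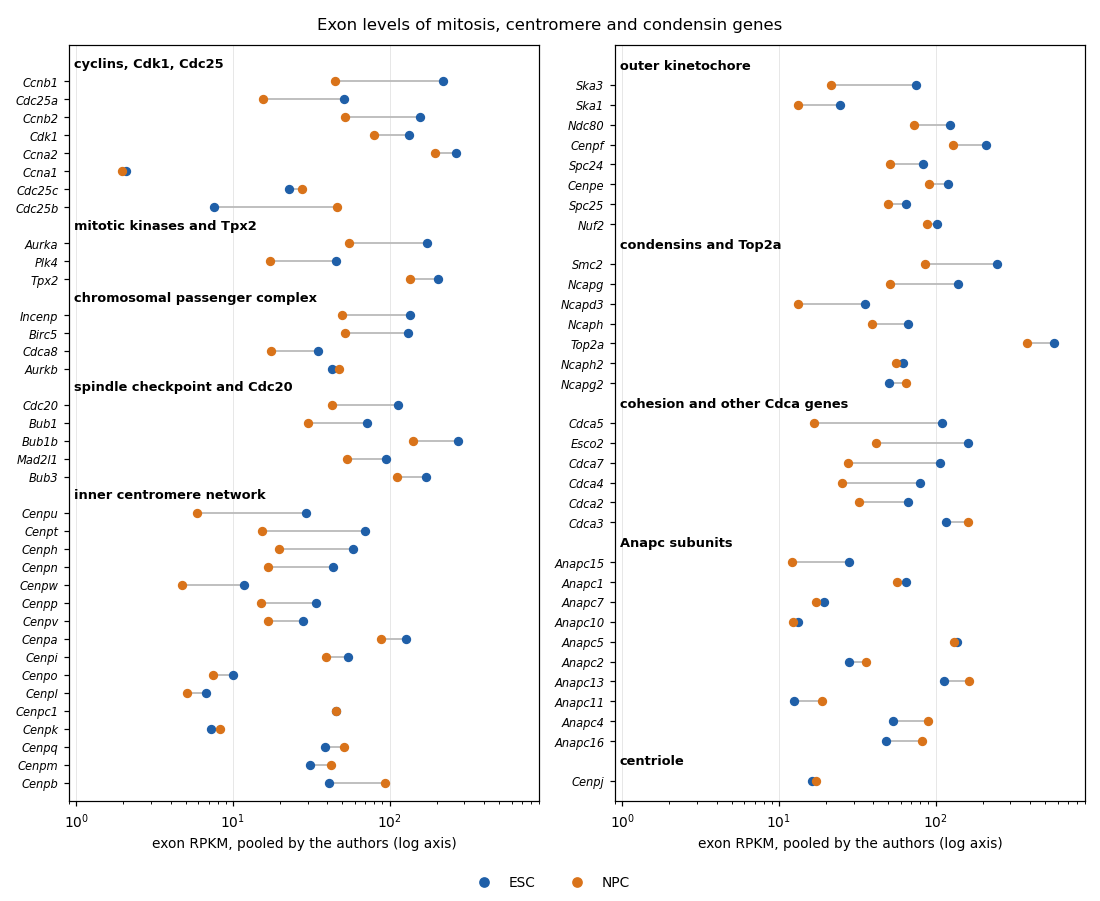
Exon RPKM of the 68 members in the exon table, on a log axis, grouped by role and sorted by fold change within each role; blue points are ESC and orange points NPC, each the authors' pooled value. In most roles the orange point lies left of the blue one, while Cdc25b (7.54 and 46.2 RPKM) and Cenpb (40.8 and 93.6 RPKM) lie the other way round.

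Introns, which report unspliced RNA, gave values for each biological replicate. In limma on log2(RPKM + 1), which understates changes of low genes, 42 of 69 tested members fell at an adjusted p of 0.05 (60.9%, against 34.0% of all 8811 tested genes). Cdc25b was the 1 member that rose (1.45%, against 13.2% of all tested genes), and 26 members did not pass. Both NPC replicates lay below both ESC replicates in 60 of the 69 members, or 87.0%, where 55.5% of all tested genes did so, and above them in 2 members, where 21.9% of all tested genes did so. The median intron log2 fold change was -1.001 for the members and -0.43 for all tested genes. The latter held at the filter of 1 RPKM and was positive without a filter. With the columns scaled to 1 median the all-gene median was -0.04, the members' median -0.60, and 37 members fell and 3 rose (Anapc4, Cdc25b and Cdc25c), while the split of all tested genes moved from 13.2% higher and 34.0% lower to 24.8% and 24.6%. The direction of 5 members that did not pass, Anapc10, Cdc25c, Cenpk, Cenpl and Cenpq, turned with this scaling.

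The replicates set limits on these intron calls. NPC replicate 2 lay above NPC replicate 1 in 62 of 71 members, with a median ratio of 1.63, whereas ESC replicate 2 lay above replicate 1 in 39 of 71 with a median ratio of 1.01. Over the 8811 tested genes the median difference, replicate 2 minus replicate 1, was 0.42 in NPC and 0.01 in ESC on the log2 scale. With genes below the level tested included, the order of the NPC replicates turned. The median intron level of all genes was then 1.12 and 0.712 RPKM in NPC replicates 1 and 2. In ESC it was 0.648 and 0.587 RPKM. Intron levels of 460 genes without exon signal were at a median of 0 and 0 RPKM in ESC and 0.224 and 0.00641 RPKM in NPC replicates 1 and 2, so NPC replicate 1 also carried more reads in silent genes. With these medians subtracted 41 members fell and 1 rose in limma. With the lower quartile of each column subtracted, an alternative chosen after seeing the data, 25 fell and 1 rose. Leaving out ESC replicate 1 left 9 members called in limma, 8 of 69 lower (11.6%, against 12.6% of all tested genes), and leaving out ESC replicate 2 left 8, with 7 of 69 lower (10.1%, against 11.9%). The share of members that fell was then no higher than that of all tested genes. Leaving out NPC replicate 1 gave 55 calls, 51 of 69 lower (73.9%, against 45.4% of all tested genes), and leaving out NPC replicate 2 gave 61 calls, all lower (89.7% of 68, against 63.0%). The 7 members called whichever replicate was left out were Birc5, Cdca5, Cdca7, Cenpo, Cenpu, Cenpw and Plk1, and all 7 were lower in NPC. Median intron reads per member, as the smallest whole numbers with the ratios of the deposited values, were 540 and 593 in ESC and 148 and 213 in NPC. Nothing in the sources used here says that the replicates were separate cultures beyond the word biological, so the p-values measure the spread between these samples.

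**Figure D2:**
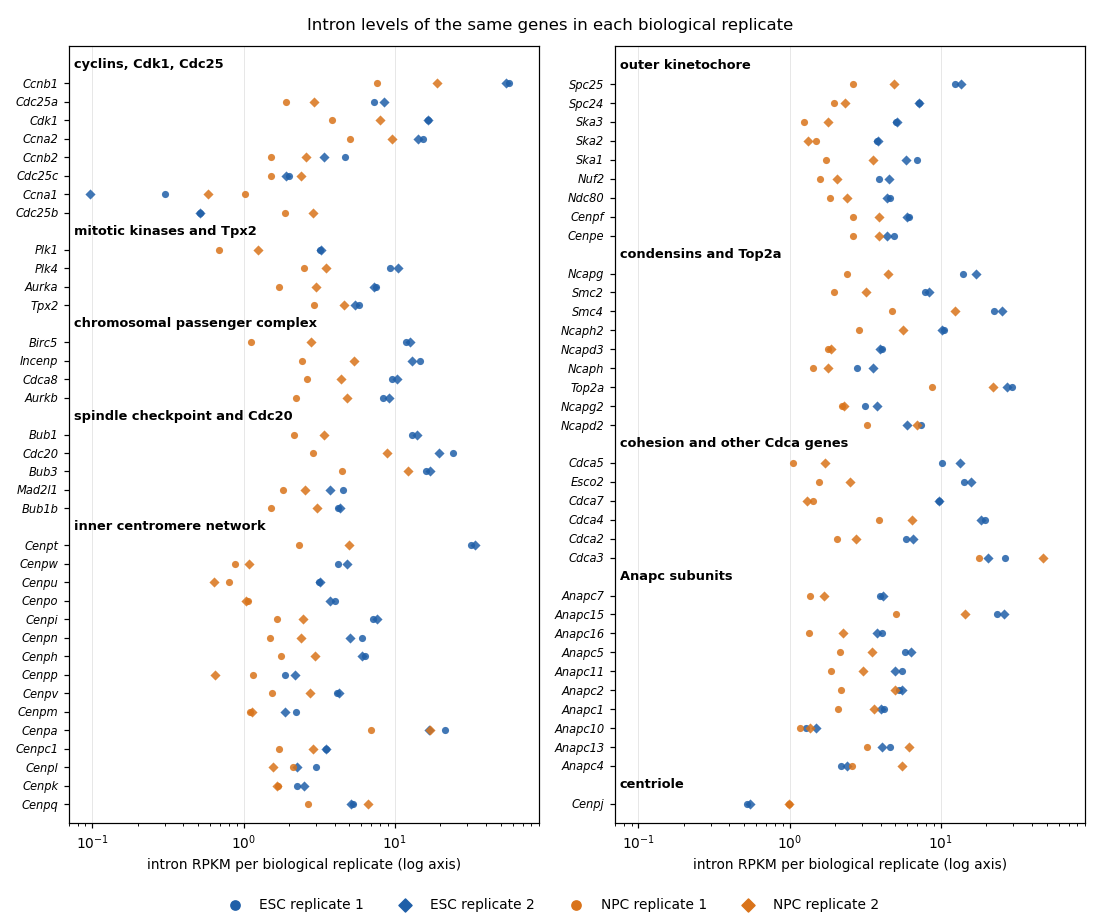
Intron RPKM of 71 members in each biological replicate, on a log axis, grouped by role; blue marks are ESC, orange marks NPC, circles replicate 1 and diamonds replicate 2. The ESC marks lie close together and to the right of both NPC marks in most rows, and the NPC diamond lies to the right of the NPC circle in 62 of 71 rows.

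Markers matched the labels of both cell types, and markers of other cells moved too. All 7 tested ESC markers fell and all 7 tested NPC markers rose in the authors' deposited table. Of 12 markers of feeder fibroblasts 7 fell and none rose, and their summed level was 172 RPKM in ESC and 31.2 RPKM in NPC, most of it Fn1 (98.4 and 14.2 RPKM) and Tagln (36.0 and 0.797 RPKM), with the collagen gene Col1a1 at 4.96 and 0.337 RPKM and none at 0. Of 7 neuronal markers, 1 of 5 tested rose (Dcx, 0.0639 and 33.8 RPKM) and 4 fell, with a summed level of 273 and 54.0 RPKM and with Rbfox3, a gene of mature neurons, at 0.0918 and 0.145 RPKM. The part of feeder or neuronal RNA in the mitotic gene levels was not tested.

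Some promoters of members that fell carry the letters known from late cell cycle genes, and others do not. The stretches below run from 120 bases before to 20 bases after the RefSeq transcription start, in the direction of transcription, and come from RefSeq on build GRCm38.p6, which is not the build of the expression tables (mm9). Capitals mark TTTGAA, the core of the CHR, and CCAAT, each on either strand (TTCAAA and ATTGG on the other). Ccnb2 (chr9:70421535-70421674, minus strand), Cdk1 (chr10:69352893-69353032, minus strand), Cdc20 (chr4:118437324-118437463, minus strand) and Cdca5 (chr19:6084977-6085116, plus strand) are examples of members that fell and hold such letters close to the start. Cenpt (chr8:105851989-105852128, minus strand), Cdca7 (chr2:72476099-72476238, plus strand) and Plk4 (chr3:40799831-40799970, plus strand) are shown beside them as the members with the largest exon falls among the 8 that fell with neither pattern. Cdc25b (chr2:131186828-131186967, plus strand), Cenpb (chr2:131180048-131180187, minus strand), Anapc4 (chr5:52834015-52834154, plus strand) and Anapc16 (chr10:60003116-60003255, minus strand) are the 4 members that rose.
Ccnb2: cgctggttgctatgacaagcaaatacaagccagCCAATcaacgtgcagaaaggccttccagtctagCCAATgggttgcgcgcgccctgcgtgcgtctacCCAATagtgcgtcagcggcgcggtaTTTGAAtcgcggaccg
Cdk1: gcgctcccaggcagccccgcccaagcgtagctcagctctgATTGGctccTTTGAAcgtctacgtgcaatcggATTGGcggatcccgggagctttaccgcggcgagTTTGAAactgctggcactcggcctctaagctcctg
Cdc20: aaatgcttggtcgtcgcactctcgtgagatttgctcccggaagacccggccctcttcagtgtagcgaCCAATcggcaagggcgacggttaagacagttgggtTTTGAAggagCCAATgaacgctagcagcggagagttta
Cdca5: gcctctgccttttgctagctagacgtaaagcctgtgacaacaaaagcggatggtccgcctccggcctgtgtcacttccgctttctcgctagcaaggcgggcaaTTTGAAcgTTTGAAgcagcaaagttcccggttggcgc
Cenpt: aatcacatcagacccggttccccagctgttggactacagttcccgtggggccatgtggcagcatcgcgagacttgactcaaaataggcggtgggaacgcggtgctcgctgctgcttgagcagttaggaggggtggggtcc
Cdca7: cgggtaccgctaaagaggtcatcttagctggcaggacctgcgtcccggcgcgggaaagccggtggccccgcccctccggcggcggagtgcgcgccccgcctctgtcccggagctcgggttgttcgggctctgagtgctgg
Plk4: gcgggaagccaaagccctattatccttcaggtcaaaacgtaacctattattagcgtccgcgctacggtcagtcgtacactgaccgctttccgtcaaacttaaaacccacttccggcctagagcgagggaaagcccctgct
Cdc25b: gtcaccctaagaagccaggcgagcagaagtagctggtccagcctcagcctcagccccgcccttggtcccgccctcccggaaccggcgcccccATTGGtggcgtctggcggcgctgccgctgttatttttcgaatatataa
Cenpb: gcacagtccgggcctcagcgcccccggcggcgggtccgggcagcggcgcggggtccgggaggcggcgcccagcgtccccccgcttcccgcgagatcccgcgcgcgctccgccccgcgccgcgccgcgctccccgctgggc
Anapc4: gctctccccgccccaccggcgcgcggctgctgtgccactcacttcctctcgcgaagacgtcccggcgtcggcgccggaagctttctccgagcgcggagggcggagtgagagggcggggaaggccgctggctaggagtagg
Anapc16: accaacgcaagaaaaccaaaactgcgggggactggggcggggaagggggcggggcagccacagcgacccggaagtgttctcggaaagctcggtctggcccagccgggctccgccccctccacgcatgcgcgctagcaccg
In these stretches Ccnb2 held 3 CCAAT and 1 TTTGAA, Cdk1 2 of each, Cdc20 2 and 1, Cdca5 2 TTTGAA and no CCAAT, Cdc25b 1 CCAAT alone, and the remaining 6 neither. Anapc16 has 1 TTTGAA further upstream, within the longer window described next.

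Promoter windows of 300 bases, 250 before and 50 after each start, were found for 62 of the 72 members. TTTGAA stood in 40.0% of the 70 member windows and in 17.9% of all 32851 windows, CCAAT in 60.0% and 37.4%, and both together in 30% and 6.95%. The patterns can share bases, as they do in the promoter of Cenpw. Condensins and Top2a held TTTGAA in 6 of 9 windows and the checkpoint genes in 4 of 6. All 6 windows of the cyclin, Cdk1 and Cdc25 genes held CCAAT. The Anapc genes stood at 2 of 13 windows with TTTGAA, 5 of 13 with CCAAT and none with both. Of the 20 members with both patterns 18 were tested on exons, and 15 fell and none rose in the authors' deposited table, with a median log2 fold change of -1.13. Of the 42 members with a window but not both patterns 41 were tested, and 19 fell and 4 rose, with a median of -0.55. Split by CCAAT alone, 22 of 34 fell and 1 rose with it (median -0.80) and 12 of 25 fell and 3 rose without it (median -0.85), so the medians lay the other way round. With TTTGAA 19 of 25 fell and 1 rose, Anapc16 (median -1.13), and without it 15 of 34 fell and 3 rose (median -0.45). Of the 18 with neither pattern 8 fell and 2 rose (median -0.73). Of all tested genes 33.9% fell and 32.3% rose on exons. The split by pattern was made for the members alone, so it cannot say whether other genes split likewise. The patterns are matches of letters, with no test and no measure of binding.

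The Cdc25 phosphatases exchanged places between the cell types, while the cyclins and Cdk1 fell. Cdc25a, which acts from the start of S phase, was at 51.1 RPKM in ESC and 15.7 RPKM in NPC, and Cdc25b, which acts at mitotic entry, at 7.54 and 46.2 RPKM. Their log2 fold changes in the authors' deposited table were -1.85 and 2.46, with adjusted p = 2.12e-13 and 1.57e-20. Cdc25c, the third phosphatase, was at 22.9 and 27.7 RPKM and did not pass (log2 fold change 0.15, adjusted p = 0.720 in the authors' deposited table). The sum of the 3 was 81.6 RPKM in ESC and 89.5 RPKM in NPC, and within it the share of Cdc25a went from 62.7% to 17.5% and that of Cdc25b from 9.24% to 51.6%. The introns of Cdc25b were at 0.518 and 0.515 RPKM in the ESC replicates and 1.88 and 2.86 RPKM in the NPC replicates, which did not overlap (limma log2 fold change 1.14 ± 0.20 SE, adjusted p = 7.41e-04). Those of Cdc25a were at 7.25 and 8.49 RPKM in ESC and 1.90 and 2.92 RPKM in NPC and fell (limma adjusted p = 0.00793). The ESC values of Cdc25b lay below the filter of 1 RPKM, so the gene entered the test only through its NPC values. Without a filter on the mean Cdc25b was also called higher (limma adjusted p = 0.0108). Without ESC replicate 1, ESC replicate 2 or NPC replicate 1, its limma log2 fold change was 1.14, 1.13 and 1.35. Without NPC replicate 2 its mean fell below the level tested.

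Cyclin B1, the main partner of Cdk1 at mitotic entry, showed the largest fall of the cyclins. Ccnb1 went from 219 to 44.6 RPKM, a 5.25-fold difference in the authors' deposited table (log2 fold change -2.39, adjusted p = 2.87e-16). Ccnb2, the other B cyclin, went from 157 to 52.1 RPKM (log2 fold change -1.69) and Cdk1 from 133 to 80.0 RPKM (log2 fold change -0.92) in the same authors' deposited table. Ccna2, the cyclin of S and G2 phase, fell least, from 265 to 195 RPKM (log2 fold change -0.56, adjusted p = 0.0409 in the authors' deposited table). Among the A and B cyclins the share of Ccna2 in the summed RPKM was 41.3% in ESC and 66.4% in NPC, and that of Ccnb1 34.0% and 15.2%. Ccna1, a cyclin of the male germline, was at 2.07 and 1.95 RPKM and did not pass.
Introns of Ccnb1 were at 57.1 and 54.7 RPKM in ESC and 7.63 and 19.1 RPKM in NPC. Both NPC values lay below both ESC values, and the gene lay just outside the threshold (limma log2 fold change -2.11 ± 0.83 SE, adjusted p = 0.0533). Introns of Cdk1 (16.4 and 16.6 RPKM in ESC, 3.83 and 8.02 RPKM in NPC) likewise did not overlap and did not pass (limma adjusted p = 0.0698). Ccna1 was below the level tested on introns.

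All tested mitotic kinases of this group and the spindle protein Tpx2 fell. Aurka, the centrosome kinase that builds the spindle, was at 174 RPKM in ESC and 55.2 RPKM in NPC (log2 fold change -1.78, adjusted p = 9.57e-13 in the authors' deposited table). Plk4, which starts centriole duplication, was at 45.2 and 17.3 RPKM, and Tpx2, which activates Aurka on the spindle, at 204 and 135 RPKM, with log2 fold changes of -1.53 and -0.73 in the authors' deposited table. Plk1, the kinase of mitotic entry and cytokinesis, could be read on introns alone. It was at 3.18 and 3.27 RPKM in ESC and 0.692 and 1.24 RPKM in NPC, without overlap (limma log2 fold change -1.12 ± 0.21 SE, adjusted p = 0.00123). Aurka introns were at 7.55 and 7.30 RPKM in ESC and 1.73 and 3.01 RPKM in NPC and fell too (limma adjusted p = 0.00870), whereas those of Tpx2 did not pass (adjusted p = 0.285 in limma).

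The chromosomal passenger complex did not move as a unit on exons. Its scaffold Incenp went from 134 to 49.7 RPKM, survivin (Birc5) from 132 to 52.3 RPKM and borealin (Cdca8) from 34.7 to 17.6 RPKM, and all 3 fell, with log2 fold changes of -1.56, -1.46 and -1.13 in the authors' deposited table. Its kinase Aurkb was at 42.9 and 47.6 RPKM, with a log2 fold change of -0.00097 and adjusted p = 0.998 in the authors' deposited table. No test of the difference between the subunits could be made, because the exon table has no replicate values.
On introns all 4 fell. Aurkb introns were at 8.32 and 9.12 RPKM in ESC and 2.21 and 4.84 RPKM in NPC (limma log2 fold change -1.17 ± 0.44 SE, adjusted p = 0.0454). Birc5 introns were at 11.8 and 12.6 RPKM in ESC and 1.12 and 2.81 RPKM in NPC, the largest intron fall of the complex (limma log2 fold change -2.21 ± 0.42 SE, adjusted p = 0.00135).

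All 5 spindle checkpoint genes fell on exons, where 33.9% of all tested genes fell. Bub1, a kinase that recruits the other checkpoint proteins to kinetochores, was at 72.0 RPKM in ESC and 30.1 RPKM in NPC, and Cdc20, the activator that the checkpoint holds back, at 113 and 42.8 RPKM. Their log2 fold changes of -1.42 and -1.56 in the authors' deposited table were the largest of the group. Bub1b, the most abundant of them, was at 275 and 141 RPKM (log2 fold change -1.13), Mad2l1, which forms the inhibitor of Cdc20, at 94.3 and 53.8 RPKM (-0.95), and Bub3, the partner of both Bub kinases, at 171 and 111 RPKM (-0.74), each in the authors' deposited table. Introns of Bub1 were at 12.98 and 14.1 RPKM in ESC and 2.16 and 3.42 RPKM in NPC (limma log2 fold change -1.96 ± 0.45 SE, adjusted p = 0.00437). Introns of Cdc20 were at 24.2 and 19.6 RPKM in ESC and at 2.86 and 8.83 RPKM in NPC, where the replicates differed by more than the ESC ones did (limma adjusted p = 0.0340). The introns of Mad2l1 fell (limma adjusted p = 0.0490), and those of Bub1b (adjusted p = 0.0627 in limma) and Bub3 (adjusted p = 0.212 in limma) did not pass. All 5 genes had both NPC values below both ESC values, as did 55.5% of all tested genes.

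The inner centromere was split. Of its 16 genes 8 fell, 1 rose and 7 did not pass on exons (median log2 fold change -0.63), and 10 of 15 fell and none rose on introns. Of all tested genes 33.9% fell and 32.3% rose on exons, and 34.0% fell and 13.2% rose on introns. Cenpa, the histone variant that marks the centromere, fell from 126 to 88.6 RPKM (log2 fold change -0.64, adjusted p = 0.0371 in the authors' deposited table) and was the most abundant of the group in ESC. Its introns were at 21.4 and 16.8 RPKM in ESC and 6.93 and 17.2 RPKM in NPC, so the replicates overlapped and the gene did not pass (limma adjusted p = 0.419). Cenpb, which binds a motif in centromeric repeats, rose from 40.8 to 93.6 RPKM (log2 fold change 1.03, adjusted p = 2.93e-05 in the authors' deposited table). Cenpc1, which links Cenpa nucleosomes to the outer kinetochore, was at 45.5 and 45.2 RPKM, with a log2 fold change of -0.15 and adjusted p = 0.639 in the authors' deposited table.

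Within the constitutive network the subcomplexes held genes of both kinds. Cenpt and Cenpw, which pair as histone-fold proteins, both fell: Cenpt went from 69.2 to 15.3 RPKM and Cenpw from 11.7 to 4.70 RPKM, with log2 fold changes of -2.29 and -1.47 in the authors' deposited table. The introns of Cenpt showed the largest fall of all members, from 32.1 and 34.1 RPKM in ESC to 2.34 and 4.94 RPKM in NPC (limma log2 fold change -2.94 ± 0.63 SE, adjusted p = 0.00288), and those of Cenpw went from 4.19 and 4.84 to 0.872 and 1.08 RPKM (limma adjusted p = 2.54e-04).
Of the Cenph, Cenpi, Cenpk and Cenpm group, Cenph fell from 58.7 to 19.7 RPKM and Cenpi from 54.6 to 39.2 RPKM, while Cenpk (7.29 and 8.23 RPKM) and Cenpm (31.1 and 42.5 RPKM) did not pass on exons. Of the Cenpo, Cenpp, Cenpq and Cenpu group, Cenpu fell from 29.2 to 5.87 RPKM, the largest fall of the centromere genes (log2 fold change -2.45, adjusted p = 6.87e-15 in the authors' deposited table), and Cenpp from 33.7 to 15.2 RPKM. Their partners Cenpo (10.0 and 7.41 RPKM) and Cenpq (38.8 and 50.8 RPKM) did not pass. Cenpn, which reads the Cenpa nucleosome, fell from 43.4 to 16.7 RPKM, and its partner Cenpl was at 6.69 and 5.07 RPKM and did not pass (adjusted p = 0.145 in the authors' deposited table). Cenpv, at 27.8 and 16.7 RPKM, lay just outside the threshold (adjusted p = 0.0511 in the authors' deposited table).
Cenpt, Cenpu and Cenpn lie on chromosome 8, whose 658 tested genes had a median log2 fold change of -0.52. Set against that median their log2 fold changes were -1.77, -1.92 and -0.95. Across all 68 members, 41 lower and 4 higher calls kept their direction after each was set against the median of its own chromosome. Introns of Cenpu were at 3.17 and 3.201 RPKM in ESC and 0.796 and 0.642 RPKM in NPC, and those of Cenpo at 4.02 and 3.74 RPKM and 1.06 and 1.04 RPKM. Both fell with close replicates (limma adjusted p = 2.41e-04 and 5.43e-04).

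Most genes of the outer kinetochore, which holds the microtubule, fell. On exons 6 of the 8 fell and 2 did not pass (median log2 fold change -0.83, range -1.95 to -0.35), and on introns 7 of 9 fell. Of all tested genes 33.9% fell on exons and 34.0% on introns. Ndc80, the microtubule-binding subunit of the complex named after it, went from 124 to 72.7 RPKM (log2 fold change -0.96, adjusted p = 5.98e-05 in the authors' deposited table) and Spc24 from 82.6 to 51.1 RPKM. The remaining subunits of that complex, Nuf2 (103 and 88.3 RPKM, adjusted p = 0.238) and Spc25 (64.6 and 49.6 RPKM, adjusted p = 0.0538), did not pass in the authors' deposited table. On introns all 4 subunits fell in limma, with Nuf2 at 3.91 and 4.55 RPKM in ESC and 1.58 and 2.06 RPKM in NPC (adjusted p = 0.0123).
Ska3 showed the largest exon fall, from 75.1 to 21.5 RPKM (log2 fold change -1.95, adjusted p = 1.25e-14 in the authors' deposited table). It belongs to the Ska complex, which helps kinetochores follow shrinking microtubules, and its partner Ska1 fell from 24.6 to 13.3 RPKM. All 3 Ska genes fell on introns, and Ska2, read there alone, was at 3.77 and 3.81 RPKM in ESC and 1.49 and 1.32 RPKM in NPC (limma adjusted p = 0.00311). The kinesin Cenpe, which moves chromosomes along microtubules, fell from 119 to 90.6 RPKM (log2 fold change -0.55), and the large kinetochore protein Cenpf from 211 to 129.6 RPKM (-0.86) in the authors' deposited table. Neither passed on introns, where Cenpe was at 4.87 and 4.38 RPKM in ESC and 2.62 and 3.93 RPKM in NPC (limma adjusted p = 0.311) and Cenpf had adjusted p = 0.101 in limma.

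Both condensin I subunits in the exon table fell, and of the condensin II subunits 1 of 3 did. Smc2, a core ATPase of both complexes, went from 248 to 85.5 RPKM (log2 fold change -1.69, adjusted p = 1.13e-13 in the authors' deposited table). Of the condensin I subunits in the exon table, Ncapg went from 138 to 51.5 RPKM and Ncaph from 66.6 to 39.2 RPKM, with log2 fold changes of -1.58 and -0.89 in the authors' deposited table. Of the condensin II subunits, Ncapd3 fell from 35.6 to 13.3 RPKM (-1.58 on the log2 scale of the authors' deposited table). Its partners Ncaph2 (62.1 and 55.5 RPKM, adjusted p = 0.258) and Ncapg2 (50.4 and 64.5 RPKM, adjusted p = 0.492) did not pass in the authors' deposited table.
Smc4, the other core ATPase, was read on introns alone, at 22.4 and 25.4 RPKM in ESC and 4.72 and 12.4 RPKM in NPC. These did not overlap, but the NPC values were far apart and the gene did not pass (limma log2 fold change -1.51 ± 0.71 SE, adjusted p = 0.0975). Introns of Smc2 were at 7.82 and 8.39 RPKM in ESC and 1.97 and 3.19 RPKM in NPC and fell (limma adjusted p = 0.0104), as did those of Ncapg, Ncaph and Ncapd3. The condensin I subunit Ncapd2 overlapped between cell types on introns, at 7.43 and 5.98 RPKM in ESC and 3.27 and 6.91 RPKM in NPC. Introns of Ncapg2 were at 3.14 and 3.76 RPKM in ESC and 2.23 and 2.28 RPKM in NPC and did not pass (limma adjusted p = 0.148).
Top2a, the topoisomerase that untangles sister chromatids, was the most abundant member in both cell types and fell from 567 to 382 RPKM (log2 fold change -0.71, adjusted p = 0.00487 in the authors' deposited table). Its introns were at 29.4 and 27.5 RPKM in ESC and 8.74 and 22.2 RPKM in NPC and did not pass (limma adjusted p = 0.326).

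Genes of sister chromatid cohesion and the Cdca genes had the lowest medians of any role, -1.92 on exons and -1.96 on introns (log2 fold changes). Cdca5, or sororin, which protects cohesin on replicated chromatids, went from 109 to 16.7 RPKM, a 7.32-fold difference and the largest fall of all members (log2 fold change -2.87, adjusted p = 1.10e-29 in the authors' deposited table). Esco2, the acetyltransferase that establishes cohesion during replication, went from 161 to 41.5 RPKM (-2.10 on the log2 scale of the authors' deposited table). Introns of Cdca5 were at 10.2 and 13.4 RPKM in ESC and 1.05 and 1.70 RPKM in NPC, far apart (limma log2 fold change -2.43 ± 0.36 SE, adjusted p = 2.85e-04). Introns of Esco2 were at 14.2 and 15.9 RPKM in ESC and 1.56 and 2.51 RPKM in NPC (limma adjusted p = 9.55e-04). Both genes thus fell on exons and on introns.
Cdca7, a partner of the chromatin remodeller Hells, went from 107 to 27.7 RPKM, Cdca4 from 80.0 to 25.4 RPKM and Cdca2, which brings a phosphatase to chromosomes at mitotic exit, from 66.6 to 32.4 RPKM, and all 3 fell. Cdca3, which promotes mitotic entry, was the exception at 116 and 160.0 RPKM (log2 fold change 0.33, adjusted p = 0.253 in the authors' deposited table). Its introns were at 26.4 and 20.4 RPKM in ESC and 17.96 and 47.1 RPKM in NPC, where the replicates lay on either side of the ESC values. Without NPC replicate 1 it was called higher (limma log2 fold change 0.99, adjusted p = 0.0150), and without NPC replicate 2 its log2 fold change was -0.35 and not called.

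The subunits of the anaphase-promoting complex, the ubiquitin ligase that starts anaphase, mostly did not pass on exons. Of the 10 Anapc genes 1 fell, 2 rose and 7 did not pass, where 33.9% of all tested genes fell and 32.3% rose. The median log2 fold change was 0.02. Anapc15, a small subunit that helps release the checkpoint, fell from 27.9 to 12.1 RPKM (log2 fold change -1.29, adjusted p = 4.62e-04 in the authors' deposited table). Anapc4, a platform subunit, rose from 53.8 to 89.3 RPKM and Anapc16, a small subunit, from 48.1 to 82.4 RPKM, both close to the threshold (adjusted p = 0.0346 and 0.0350 in the authors' deposited table). Among those that did not pass were the scaffold Anapc1 (65.2 and 56.8 RPKM), the cullin Anapc2 (28.0 and 36.0 RPKM) and the RING subunit Anapc11 (12.5 and 18.8 RPKM). Anapc13, a small subunit at 113 and 163 RPKM, went from position 22 among the 68 members by level in ESC to position 3 in NPC.
On introns 4 of the 10 genes fell (Anapc5, Anapc7, Anapc11 and Anapc16), a share near the 34.0% of all tested genes, and none rose, with a median of -0.69 beside -0.43 for all tested genes. Anapc11 introns were at 5.55 and 4.95 RPKM in ESC and 1.87 and 3.04 RPKM in NPC (limma log2 fold change -0.87 ± 0.31 SE, adjusted p = 0.0364). Anapc16 was the 1 member called in opposite directions, with introns at 4.09 and 3.80 RPKM in ESC and 1.34 and 2.24 RPKM in NPC (limma log2 fold change -0.84 ± 0.25 SE, adjusted p = 0.0172). Introns of Anapc1 (4.19 and 4.05 RPKM in ESC, 2.10 and 3.64 RPKM in NPC) did not pass (limma adjusted p = 0.256). Introns of Anapc4 were at 2.20 and 2.41 RPKM in ESC and 2.57 and 5.53 RPKM in NPC, above ESC in both replicates (limma adjusted p = 0.165); with columns scaled to 1 median it was called higher (log2 fold change 0.94, adjusted p = 0.0115).
Cenpj carries a centromere name but builds centrioles. It was at 16.3 and 17.4 RPKM on exons and did not pass (adjusted p = 0.809 in the authors' deposited table), and its introns, below the level tested, were at 0.519 and 0.548 RPKM in ESC and 0.988 and 0.985 RPKM in NPC.

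**Figure D3:**
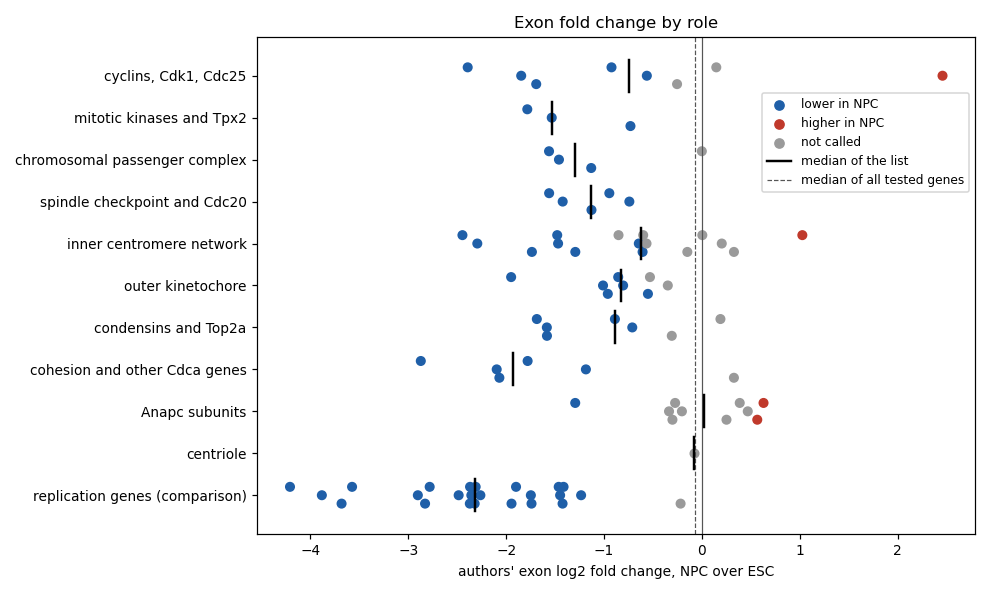
The authors' exon log2 fold change (NPC relative to ESC) of each member, 1 row of points per role, with replication genes in the last row for comparison; blue points fell, red points rose, grey points did not pass, black bars are medians and the dashed line is the median of all tested genes (-0.07). Cohesion and Cdca genes lie farthest left among the members (median -1.92), the Anapc genes straddle 0 (median 0.02), and the replication genes lie at a median of -2.32.

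Genes of the same pathways that the symbol rule leaves out mostly fell as well in the authors' deposited table. Of all tested genes 33.9% fell and 32.3% rose there. Of 16 further kinetochore genes 12 fell and 1 rose (median log2 fold change -1.20). Spdl1, which recruits dynein to kinetochores, fell from 139.9 to 37.5 RPKM, the Mis12 complex subunit Nsl1 from 23.9 to 7.75 RPKM and the histone-fold protein Apitd1 from 10.3 to 3.41 RPKM, while Itgb3bp rose from 1.42 to 7.40 RPKM. Of genes that load new Cenpa, Mis18a (37.7 and 21.3 RPKM) and Oip5 (29.9 and 20.6 RPKM) fell, and the chaperone Hjurp (45.3 and 55.5 RPKM) did not pass.
Of 8 anaphase-promoting complex genes without an Anapc name 6 fell and 1 rose (median -0.80). The largest falls were not in core subunits but in the complex's inhibitor Fbxo5 (113 and 26.1 RPKM), the ubiquitin-conjugating enzymes Ube2s (5.80 and 1.39 RPKM) and Ube2c (165 and 100.4 RPKM) and the activator Fzr1 (31.5 and 16.9 RPKM). Of the core subunits, named after their values were seen, Cdc26 rose (6.77 and 12.1 RPKM), Cdc23 and Cdc27 fell and Cdc16 did not pass. These 8 are thus genes of unlike kinds, and their count is no contrast to that of the 10 Anapc genes.
Of 11 genes of mitotic entry, separase and exit 8 fell and none rose (median -1.35), led by the histone kinase Gsg2 (50.2 and 8.76 RPKM) and separase, Espl1 (34.3 and 9.06 RPKM). Wee1, the kinase that opposes Cdc25, fell as well (59.5 and 21.5 RPKM), and so did the Cdk1 subunit Cks1b (192 and 66.7 RPKM). Of 13 spindle and cytokinesis genes 8 fell and none rose (median -1.02), among them the midbody protein Cep55 (242 and 55.4 RPKM), the cytokinesis regulator Ect2 (151 and 40.8 RPKM), the spindle motor Kif11 (369.7 and 113 RPKM) and Hmmr (169 and 60.6 RPKM).

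Of the regulators known to bind the promoters of these genes 10 were tested on exons. Among them 6 fell, 1 rose and 3 did not pass (median -0.86), where 33.9% of all tested genes fell and 32.3% rose. The NF-Y gene Nfya did not pass (adjusted p = 0.620) and the NF-Y gene Nfyb fell (adjusted p = 0.00173), both in the authors' deposited table. Mybl2, which encodes B-Myb, fell from 263 to 5.11 RPKM (log2 fold change -5.83, adjusted p = 1.95e-151 in the authors' deposited table), a larger fall than that of any member. Its introns were at 41.4 and 43.9 RPKM in ESC and 0.806 and 0.527 RPKM in NPC (limma adjusted p = 4.43e-05). The DREAM complex genes E2f4 (125 and 20.9 RPKM), Tfdp1 (47.0 and 17.7 RPKM) and Lin9 (30.00 and 13.7 RPKM) fell. Of further DREAM genes, named after their values were seen, Lin54 fell (31.3 and 18.8 RPKM). Rbl1 (21.6 and 19.9 RPKM) and Lin52 (9.74 and 11.4 RPKM) did not pass (adjusted p = 0.413 and 0.890 in the authors' deposited table). Rbl2, a pocket protein of DREAM named after its value was seen, rose on exons (17.8 and 31.9 RPKM) and fell on introns. Foxm1, a factor of late cell cycle genes read on introns alone, was at 2.81 and 2.80 RPKM in ESC and 1.13 and 2.46 RPKM in NPC and did not pass (limma adjusted p = 0.132).
Genes of DNA replication, listed for comparison, had a lower median than the members, and 23 of 24 fell and none rose, with a median log2 fold change of -2.32 beside -0.83 in the authors' deposited table. Orc1 was at 76.4 and 4.62 RPKM, Cdt1 at 101 and 7.64 RPKM, Mcm5 at 471 and 40.3 RPKM and Mcm3 at 651 and 61.4 RPKM. On introns the replication median was -1.87 beside -1.001 for the members. The difference between the lists was not tested.

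Exon and intron fold changes could be set side by side for 65 members. Across these genes, which are not independent replicates, Pearson's r was 0.80 and Spearman's rank correlation 0.73 (0.80 and 0.83 over 8380 genes). The intron value was below the exon value by a median of 0.11 in the members and 0.29 over all genes. Both tests called 30 members lower, and Cdc25b was called higher in both.
Another 11 fell on exons without passing on introns, namely Ccnb1, Cdk1, Ccna2, Top2a, Cenpa, Cenpe, Cenpf, Tpx2, Bub1b, Bub3 and Anapc15. The reverse held for 9, namely Aurkb, Nuf2, Spc25, Cenpm, Cenpo, Cenpv, Anapc5, Anapc7 and Anapc11. In 12 neither test passed, Anapc4 was higher on exons alone, and Anapc16 was called in opposite directions. A call in 1 table and not in the other is no test of a difference between exons and introns, since the tables differ in replicates, scale and filter.

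**Figure D4:**
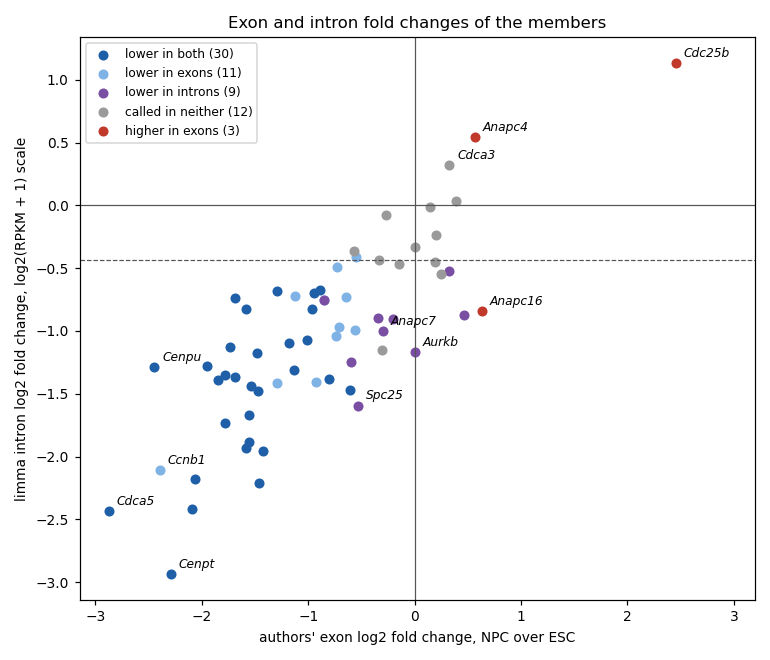
The authors' exon log2 fold change (x axis) against the limma intron log2 fold change on the log2(RPKM + 1) scale (y axis) for the 65 members tested in both, coloured by call; the dashed line is the intron median of all tested genes (-0.43). Cdca5 and Cenpt lie lowest, Cdc25b alone lies far to the upper right, and Anapc16 and Aurkb lie at or right of 0 on the x axis and below the dashed line.

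Among members that start within 15 kb of each other on mm9 there were 2 pairs, and in each the genes moved together. On chromosome 13, Cenph (start at 101545854) and Ccnb1 (start at 101556441) lie 10.6 kb apart, and both fell, with log2 fold changes of -1.74 and -2.39 in the authors' deposited table. Their nearest tested neighbours Mrps36 (0.02), Slc30a5 (-0.31) and Cdk7 (-0.42) did not pass in that authors' deposited table.
On chromosome 2, Cenpb (start at 131005748) and Cdc25b (start at 131012687) lie 6.94 kb apart, and both rose. Around them Spef1 (1.55) and Ap5s1 (1.85) rose, Mavs (-2.57) fell and 1700037H04Rik (-0.69) did not pass, on the log2 scale of the authors' deposited table. The sources used here do not say whether counting used strand, so reads of overlapping genes on opposite strands cannot be told apart at any of these loci.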

How the data were processed

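RNA of 8 libraries, 2 biological replicates of ESC and 2 of NPC with 2 technical libraries each, was read as 50 bp single ends after Ribo-Zero depletion and ScriptSeq v2 preparation, per the labels' protocols and the series' design text. The authors deposited an exon table of 20596 genes (84 unnamed, left out) with a log2 fold change, an adjusted p-value and RPKM pooled per cell type, per the file headers. They also deposited an intron table of 18719 genes (64 unnamed, left out) with 1 value per biological replicate. Its header names no unit. Whole read numbers give the ratios between columns of all 71 members within a relative tolerance of 1e-10. This shows a scaling of reads per column but cannot show one by gene length, so RPKM is assumed for these deposited values. The submitters' processing notes name DESeq2 1.10.0 and mm9. What the sources used here leave out is the aligner, the annotation, the use of strand, the treatment of reads shared by similar genes and whether the authors' exon test combined technical libraries.

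Exon calls are the authors' adjusted p below 0.05, for genes at a mean of 1 RPKM or more. Introns were tested with limma 3.58.1 (R 4.3.3) with its mean-variance trend on log2(RPKM + 1), for genes averaging 1 RPKM or more over the 4 columns, 2-sided, with Benjamini-Hochberg adjustment over all 8811 tested genes. The script was tested on simulated data with equal, independent noise in every column. Over the tested genes the NPC replicates here differed by a median of 0.42 on the log2 scale, which that simulation does not hold. Of the members, 69 of 71 passed the intron filter and all 68 the exon filter; Ccna1 and Cenpj did not pass the former. Alternatives were other filters, pseudocounts, scalings, background subtractions, no trend, a replicate block and leaving out each replicate. Promoters were matched by gene identifier, or by symbol where the identifier found none, to RefSeq windows of 300 bases on GRCm38.p6 (62 of 72 members).

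The members, the gene lists and the tests were chosen with earlier results of these data known. Full values are given for the members with the largest and smallest exon fold change and the highest level of each role and for 20 fixed genes, and, outside the rule, for up to 4 genes per list with the largest exon fold change; a gene of these lists is not reported here. Exon depth per library is unknown.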

Additional observations from a re-analysis of the deposited data

How the results depend on the processing

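On exons the 41 lower and 4 higher calls were the same without a filter, as all 68 members pass it. Centring on the median of all genes or, chosen after seeing the data, of the own chromosome leaves the authors' adjusted p-values unchanged. It could thus change only the direction of a call, and it changed none. Above a mean of 10 RPKM 40 and 4 members were called, and at an adjusted p of 0.01 37 fell and 2 rose. Pooled exon values have no replicates, so no exon call could be checked by leaving one out.

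On introns the 43 calls in limma (42 lower, 1 higher) numbered 30 to 42 with other filters, 37 and 40 with pseudocounts of 0.1 and 0.5, 37 without the trend and 42 with the background subtracted. Requiring a mean of 3 RPKM left 0 higher, scaling the columns to 1 median gave 40 calls with 3 higher, and subtracting the lower quartile (chosen after seeing the data) gave 26, of which 25 were lower. Leaving out 1 replicate at a time gave 8 to 61 calls, 7 to 61 lower and 0 to 4 higher. Without ESC replicate 1 or 2, 11.6% and 10.1% of the members were lower beside 12.6% and 11.9% of all tested genes, and without NPC replicate 1 or 2, 73.9% and 89.7% beside 45.4% and 63.0%; the spread then came from the pair left in the other cell type. A replicate block gave 34 calls, 33 lower and 1 higher, all among the 43. The difference between replicates 1 and 2 in ESC and that in NPC had a correlation of 0.0190 over 8811 genes. With a single such difference per cell type, this cannot say whether the numbers pair the samples.

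Signs of intron log2 fold changes turned only in members that did not pass. With scaled columns they were 0.32 for Anapc10, 0.39 for Cdc25c (limma adjusted p = 0.0492), 0.065 for Cenpk, 0.036 for Cenpl and 0.16 for Cenpq, and for Anapc13 -0.0057 with background and -0.12 with the lower quartile subtracted. Leaving out 1 replicate at a time, the ranges that held both signs were -0.34 to 0.41 for Anapc13, -0.23 to 0.21 for Cdc25c, -0.35 to 0.99 for Cdca3, -0.76 to 0.29 for Cenpq and -0.85 to 0.043 for Ncapd2. The cause was not tested. Members had fewer intron reads in NPC (medians of 148 and 213) than in ESC (540 and 593). The scale of each column, inferred from the values and relative to ESC replicate 1, was 1.13 for ESC replicate 2. It was 1.00 and 0.90 for NPC replicates 1 and 2, so the fewer reads are no measure of depth.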

Other observations

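Not every gene of cell division followed the members. Mki67, whose protein is the usual label of dividing cells, was at 205 RPKM in ESC and 285 RPKM in NPC on exons and did not pass (log2 fold change 0.32, adjusted p = 0.230 in the authors' deposited table). Its introns were at 7.25 and 6.54 RPKM in ESC and 4.25 and 9.05 RPKM in NPC, which overlap (limma adjusted p = 0.853). Ckap5, a microtubule polymerase of the spindle, was at 132 and 174 RPKM and Racgap1, a part of the central spindle, at 49.0 and 57.2 RPKM, and neither passed (adjusted p = 0.395 and 0.797 in the authors' deposited table). These 3 genes were picked after their values were seen.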
